A study of Mus musculus with 15 samples.

Results

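The data described here are the crosslink sites that iCLIP, a UV crosslinking and immunoprecipitation method with single-nucleotide resolution, placed in exons of pseudogenes, that is, in gene copies annotated as non-functional. The cells were immortalised bone marrow-derived macrophages of C57BL/6 mice that lacked endogenous tristetraprolin (TTP), carried the oncogenes hcmyc and hRasG12V, and expressed tet-inducible GFP-TTP or GFP-TTP-AA. TTP-AA carries the substitutions S52A and S178A, so that the kinase MK2 cannot phosphorylate these serines. All cells received doxycycline (1 µg/ml) for 6 h to induce the GFP fusion, and were left without lipopolysaccharide (LPS) or received LPS (1 µg/ml) for 1 h or 4 h. The 15 libraries fell into 6 groups, each deposited as 1 list of sites summed over its libraries: for TTP, 2 libraries without LPS, 4 after 1 h and 2 after 4 h, and for TTP-AA, 2, 3 and 2. No list of cells with GFP alone was analysed here; the protein was expressed from a vector, not from its own gene.

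A site was a member when it lay on the sense strand in an exon of a gene whose GENCODE M21 type contains "pseudogene", in no protein-coding UTR or coding sequence (CDS) and in no other non-coding exon. Sites in 1 highly covered locus on chromosome 17 and on the mitochondrial genome were left out. The rule kept 467 of the 162273 sites of the 6 lists. They carried 655 cDNAs, a cDNA being a unique reverse-transcribed molecule, and lay at 393 different positions in 115 of the 13523 annotated pseudogenes. Of these positions, 376 (95.7%) were in processed pseudogenes, and 6 pseudogenes were of other kinds. No member overlapped another non-coding exon, and 45 positions lay inside the span of a protein-coding gene on the same strand.

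TTP, the product of Zfp36, is a zinc-finger protein that binds AU-rich elements with the core AUUUA in the 3′UTRs of cytokine mRNAs and promotes their decay, and phosphorylation by MK2 restrains this. A processed pseudogene arises when an mRNA is reverse-transcribed and inserted into the genome. It therefore has no introns, joins the exons of its source gene directly, and often ends in a copy of the poly(A) tail. Genes that are highly transcribed in the germ line, such as those of ribosomal proteins and translation factors, have left many such copies. A short read from a copy and one from the source mRNA can be alike, and an aligner that does not split reads cannot place a read that crosses an exon junction on the source gene.

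For each pseudogene, the source gene was taken as the protein-coding gene that shares most 20-nt words with it, with a minimum of 10 words. Such a gene was found for 113 of 115 pseudogenes, which had 93 source genes, and the median pseudogene shared 48.5% of its words. Marker genes of cell types were looked up among the exon cDNAs. After 1 h of LPS, 7 of 8 macrophage marker genes had exon cDNAs in the TTP-AA list and 3 of 8 in the TTP list, against 0 or 1 of 8 in the other lists. None of 5 markers of T cells, B cells, epithelium and fibroblasts had a cDNA in any list. Since macrophage markers were almost absent from most lists too, this absence cannot check the cell type. Outside the excluded loci, the lists held 16588 to 154809 cDNAs. In the cells without endogenous TTP, Zfp36 exons held 28 cDNAs for TTP and 162 for TTP-AA after 1 h, 9 and 0 without LPS, and 0 in both lists after 4 h.

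The sequences that the results turn on are of 2 kinds. The first are copies of the Eef1a1 mRNA, which encodes the translation elongation factor that delivers aminoacyl-tRNA to the ribosome. They are shown because the most used position of all pseudogenes lies here. The mRNA is given across the junction of its exons 4 and 5 (chr9:78479852-78479863 and chr9:78479757-78479774, minus strand, mm10), with the junction after base 12. The copy in AC133509.1 (chr19:17927233-17927262, plus strand) differs from it at the base in capitals, and the copies in Gm4977, Gm19029, AC122119.2 and AC110913.1 are identical to the mRNA over these 30 nt. The most used site is base 10, so that its reads begin at base 11.
Eef1a1: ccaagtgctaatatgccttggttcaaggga
AC133509.1: ccaagtgctaatatgccttgAttcaaggga

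The others are pseudogenes with an adenosine run. Each is shown with 20 nt before the run in lower case and the first 10 nt of the run in capitals, because sites lay just before it. The stretches are those of Mrpl23-ps1 (chr2:74591362-74591391, minus strand), Gm1821 (chr14:46084944-46084973, plus strand), Rpl37rt (chr5:115103181-115103210, minus strand) and Gpx4-ps2 (chr10:45876047-45876076, plus strand). The last 30 nt of the annotated Gm15500 (chr7:114705217-114705246, minus strand) follow, with the polyadenylation signal AATAAA in capitals, since 12 of its 13 positions lay near this end.
Mrpl23-ps1: aataaaaattctttgtggagAAAAAAAAAA
Gm1821: ttttgttgcatggtaagcatAAAAAAAAAA
Rpl37rt: aaaataaatgttctgctttcAAAAAAAAAA
Gpx4-ps2: gaataaaatgtagaaatgtgAAAAAAAAAA
Gm15500: tcataaagacAATAAAcatattgatcaagc

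Pseudogene exon sites were compared between the proteins to ask how their share depended on the phosphorylation sites and on LPS. Without LPS, 76 cDNAs for TTP and 74 for TTP-AA lay at these sites, which was 0.269% (Wilson 95% interval 0.215 to 0.337) and 0.258% (0.206 to 0.324). The difference, TTP-AA minus TTP, was -0.0109 percentage points (Newcombe interval -0.0965 to 0.0743). After 1 h of LPS, 111 cDNAs of TTP made up 0.160% (0.133 to 0.193) and 338 cDNAs of TTP-AA made up 0.218% (0.196 to 0.243), a difference of 0.0583 points (0.0189 to 0.0948). After 4 h of LPS, TTP had 12 cDNAs, 0.0614% (0.0351 to 0.107), and TTP-AA had 44, 0.265% (0.198 to 0.356), a difference of 0.204 points (0.122 to 0.298). The share was thus higher for TTP-AA after 1 h and 4 h, with intervals that excluded 0 but cover counting error only. Each list is a sum of libraries, so the spread between replicates cannot be given and these intervals compare lists, not conditions.

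The 1 h direction depended on the scale. It turned when each site was counted once (-0.156 points) and when only exonic cDNAs formed the denominator (-0.300 points). The exonic denominators differed mainly in the 3′UTR, which took 13.8% of cDNAs for TTP and 60.4% for TTP-AA after 1 h. Leaving out the 5 pseudogenes with most cDNAs brought the difference to 0.00943 points (-0.0253 to 0.0411) after 1 h and to -0.00110 points (-0.0546 to 0.0560) after 4 h.

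Within each protein, the share of TTP cDNAs was lower after 1 h than without LPS (later minus earlier, -0.109 points, -0.182 to -0.0461), and after 4 h it was 0.383 times the 1 h share (0.192 to 0.697). For TTP-AA, every difference between times had an interval that included 0. The headers of both 1 h lists carry a mark for handling regions as a unit that the other headers lack, and this cannot be told apart from the time.

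**Figure D1:**
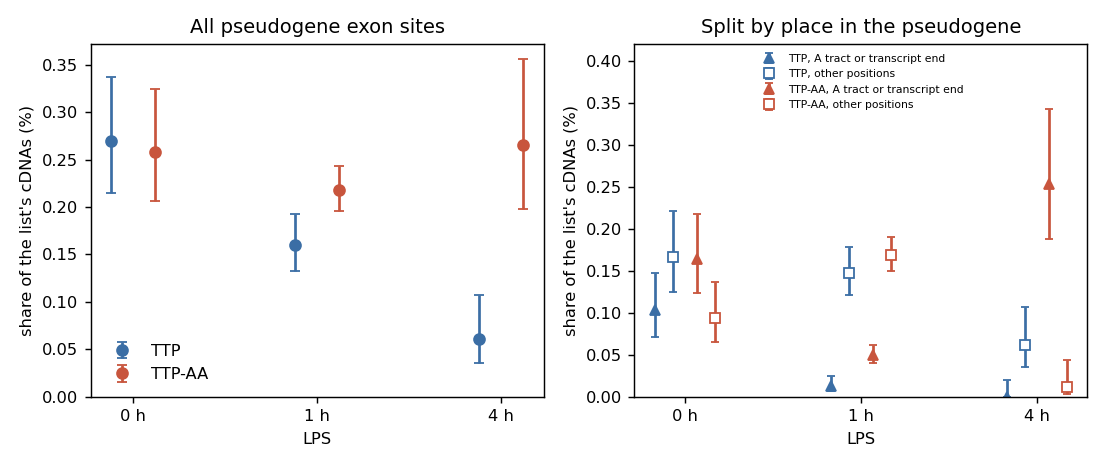
Share of the cDNAs of each list (y axis, percent; excluded loci left out) at pseudogene exon sites by hours of LPS (x axis), with Wilson 95% intervals. Left, all sites: TTP goes from 0.269% without LPS to 0.0614% after 4 h, whereas TTP-AA stays between 0.218% and 0.265%. Right, triangles are positions before an A tract or at an annotated end and open squares all others: after 4 h, TTP-AA has 0.253% and 0.0121% and TTP 0% and 0.0614%.

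Other exonic regions did not move in the same way. After 1 h of LPS, the ratio of shares, TTP-AA over TTP, was 1.36 (exact interval 1.10 to 1.71) for pseudogene exons, 4.38 (4.29 to 4.48) for 3′UTRs, 1.05 (0.986 to 1.12) for CDS and 0.742 (0.693 to 0.794) for exons of long non-coding RNAs. The interval of pseudogene exons overlapped that of the CDS and not those of 3′UTRs and long non-coding RNAs. After 4 h of LPS, the ratio was 4.32 (2.24 to 8.99) for pseudogene exons, with 1.30 (1.19 to 1.42) for 3′UTRs and 0.724 (0.587 to 0.891) for CDS. Per 100 CDS cDNAs, pseudogene exons held 30.9 and 39.8 without LPS, 7.75 and 10.1 after 1 h, and 4.92 and 29.3 after 4 h, for TTP and TTP-AA.

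The sites were thinly covered. Of the member sites, 63.0% in the TTP-AA list after 4 h to 100% in the TTP list after 4 h had a single cDNA, and 342 of 393 positions (87.0%) appeared in only 1 list. No site had more than 20 cDNAs. The 5 leading pseudogenes held 28.8% of member cDNAs in the TTP list after 1 h and 34.9% in the TTP-AA list, but 83.3% and 77.3% after 4 h, where TTP had cDNAs in 6 pseudogenes and TTP-AA in 10.

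To ask what the members share besides their annotation, the 40 nt that follow each site, where the read begins, were compared with all protein-coding transcripts at up to 2 mismatches. The 393 positions fell into 5 kinds, defined after the data were seen. In 175 positions (44.5%) of 56 pseudogenes, the window matched a spliced mRNA across an exon junction of the source gene. In 100 (25.4%) it matched inside 1 exon, in 50 (12.7%) it held a run of at least 10 A, in 28 (7.12%) fewer than 24 nt remained to the annotated end, and in 40 (10.2%) no match was found. Over each of the 109862 positions of the same pseudogenes, these shares were 14.1%, 52.1%, 0.672%, 2.45% and 30.6%. Junction, A-tract and annotated-end windows were therefore more frequent among members than along the same transcripts, and windows within an exon or without a match were less frequent.

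**Figure D2:**
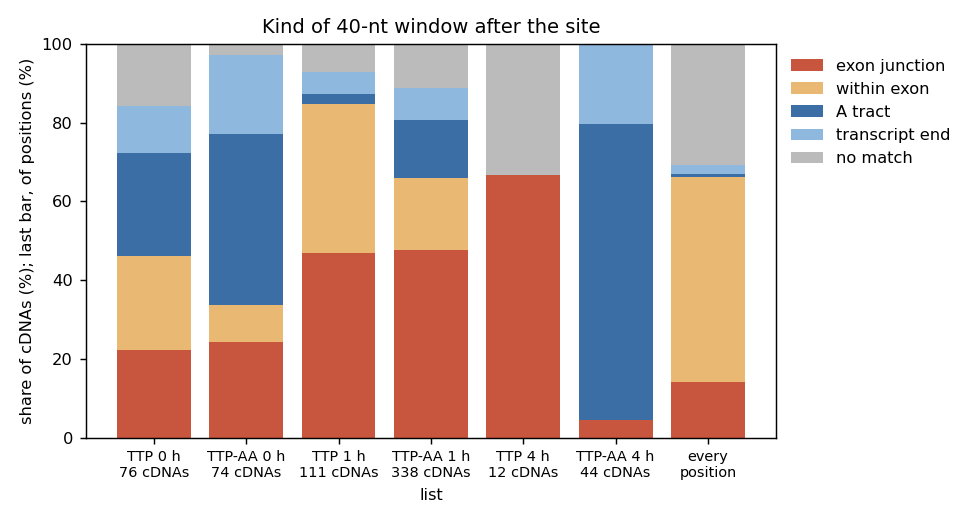
Kind of 40-nt window after the site, as a share of the member cDNAs of each list (y axis, percent; number of cDNAs under each bar), and for all positions of the same pseudogenes in the last bar. Junction windows make up 46.8% and 47.6% after 1 h for TTP and TTP-AA, and A tracts 75% in TTP-AA after 4 h, against 14.1% and 0.672% of all positions.

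Exon junctions were examined first. Among the 275 matched positions, 63.6% (57.8 to 69.1) spanned a junction, against 21.3% of all matched positions and 26.2% when each pseudogene was weighted by its member positions. Of 88 pseudogenes, the 56 with a junction position had a share above that of their own transcript, and the 32 without one were below. With few positions in most pseudogenes, this count says little more than which of them had a junction position. Positions of 1 pseudogene share sequence and are not independent, which the intervals given here do not allow for. At least 5 nt lay on either side of the junction in 150 of the 175 windows. Without the copies of Eef1a1, the share was 67.1% (60.9 to 72.8) of 237 positions, against 21.8% of all. Sites in annotated CDS differed in the other direction. A junction lay within the next 40 nt of the mRNA at 5.58% of 3707 CDS sites, but at 22.3% of all CDS positions of these genes. None of the junction sites, in any of the 6 lists, had a site at the same nucleotide of the source gene or within 2 nt of it. Of the sites within an exon, 9 of 50 had one in the TTP-AA list after 1 h and none in the other lists. An aligner that does not split reads cannot place a read across a junction on the source gene. The CDS share and the absence of junction sites in source genes were therefore limited in advance. They do not compare copies with genes. The part of unspliced alignment in these values was not tested.

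After 1 h of LPS, the share of member cDNAs with any such match was 84.7% (76.8 to 90.2) for TTP and 66.3% (61.1 to 71.1) for TTP-AA, a difference of -18.4 points (-26.0 to -9.20). It was 47.4% and 37.8% without LPS, and 66.7% and 9.09% after 4 h. These shares include 3 A-tract positions, of Cd63-ps and Gpx4-ps2, whose windows matched Nr6a1 and Cog5 and not the source gene. Without these 3, the TTP-AA share was 33.8% without LPS, 66.0% after 1 h and 4.55% after 4 h, and the TTP share was 46.1% without LPS and the same at the other times. Windows under 24 nt were not compared and count as unmatched, as do nearly all A-tract windows. At the 315 other positions, 35 of 47 TTP and 25 of 27 TTP-AA cDNAs had a match without LPS. After 1 h these were 94 of 102 and 223 of 261, and after 4 h 8 of 12 and 2 of 2. The order of the proteins without LPS and after 4 h was thus reversed there. Without any mismatch, the 1 h shares of all member cDNAs were 22.5% and 18.9%. Of the 275 junction and within-exon positions, 86 matched an mRNA without a mismatch, 158 with 1 and 31 with 2. The best match was in the source gene at all but 14 of them, which matched another gene of like sequence such as Ftl1, Tuba1a or Gapdh. Over all positions, 3 shared their window with other pseudogenes. At the 86 positions the window cannot tell the copy from the mRNA. At the others a read could do so only where it covers a differing base. At some of them the first 25 nt held no mismatch. Read sequences were not used, so the origin of the reads was not tested at any position. No window matched a non-coding RNA. The matches lay in the CDS of the mRNA at 88.7% of the 275 positions, in its 3′UTR at 10.5% and in its 5′UTR at 0.727%, against 91.1%, 5.99% and 2.89% of all matched positions. For TTP after 1 h, all 94 matched cDNAs lay in CDS copies, whereas 22 of the 223 TTP-AA cDNAs lay in 3′UTR copies.

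The copies of Eef1a1 held the most used positions, next to 1 junction. Of 115 cDNAs in 9 pseudogenes, 97 lay within 15 nt of the junction printed above, in 5 of these pseudogenes. Copies of Eef1a1 held 9 cDNAs for TTP and 2 for TTP-AA without LPS, 31 and 69 after 1 h, and 4 and 0 after 4 h. Of these, 9, 0, 18, 66, 4 and 0, in the same order, lay within 15 nt of the junction. The most used base, 3 nt upstream of the first base after the junction, held 52 cDNAs over all lists. Not all of these 97 cDNAs had junction windows. By window, 58 were at junction positions, 17 within an exon and 22, all in Gm19029, without a match at 2 mismatches. In the junction windows of the most used base only 2 nt preceded the junction, and 53 of the 58 cDNAs had fewer than 5 nt before it. Gm4977 (ENSMUSG00000111613.1, chr9:17732670-17733931, plus strand) had 3 and 0 cDNAs without LPS, 6 and 33 after 1 h and 0 in both lists after 4 h. Its position chr9:17733168 had 20 cDNAs in the TTP-AA list after 1 h, the highest count of any member, and 3 in the TTP list.

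**Figure D3:**
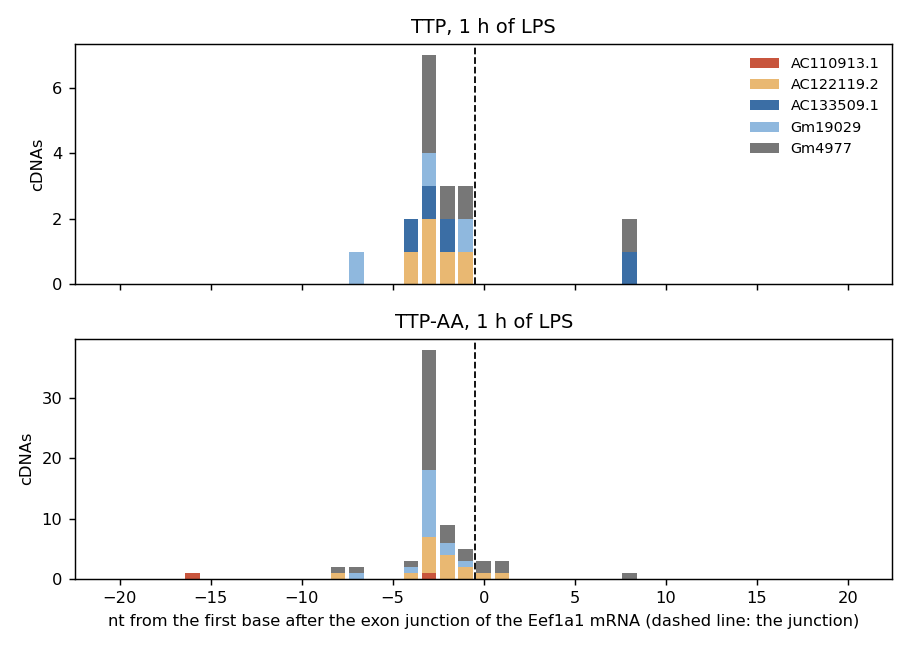
cDNAs (y axis; the panels differ in scale) of Eef1a1 copies after 1 h by distance in nt from the first base after the exon junction (x axis), stacked by pseudogene. In both lists the highest bar is at -3, and the junction is the dashed line.

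Of the other copies, AC122119.2 and Gm19029 had most cDNAs at the same base. AC122119.2 (chr19:7959743-7961107, minus strand) held 3 and 0 cDNAs without LPS, 5 and 16 after 1 h, and 2 and 0 after 4 h. Gm19029 (chr1:100006021-100006584, plus strand) held 3 and 0, 3 and 16, and 2 and 0. AC133509.1, the copy with the different base, had 6 cDNAs in the TTP list after 1 h and none elsewhere. Over the whole of its length, Gm19029 shared 16.7% of its words with Eef1a1, Gm4977 34.8% and AC122119.2 41.1%, so that the copies were less alike outside these 30 nt. At Eef1a1 itself, 0 cDNAs lay within 15 nt of the junction in any list. Elsewhere in its exons the gene held 15 cDNAs for TTP and 1 for TTP-AA without LPS, and 3 and 49 after 1 h. A read across the junction cannot be placed on the gene without splitting it. The absence of cDNAs just before the junction therefore does not compare copy and gene.

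Among the other pseudogenes with junction windows, Gm9794 (chr6:66875321-66875743, minus strand) is a copy of Rpl23, which encodes a protein of the large ribosomal subunit. It held 2 and 4 cDNAs without LPS, 0 and 21 after 1 h, and 2 and 0 after 4 h for TTP and TTP-AA, and all 20 of its positions had junction windows. Rpl23 itself had 3 CDS cDNAs in the TTP list and 3 cDNAs in its 3′UTR for TTP-AA after 1 h. Gm6977 (chrX:90744546-90745062, minus strand), a copy of the ferritin heavy chain gene Fth1, held 8 and 18 cDNAs after 1 h and none at other times, with junction windows at 13 of 18 positions. Fth1 itself was heavily covered after 1 h, with 130 CDS cDNAs for TTP and 300 for TTP-AA. Gm5835, a copy of Rpl4, held 5 and 7 cDNAs after 1 h and 2 in the TTP list after 4 h, and Gm6204, a copy of Rps14, held 3 and 9 after 1 h and 3 in the TTP-AA list without LPS. All 11 positions of each had junction windows.

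The A-tract positions behaved differently from the junction positions. They numbered 50 in 12 pseudogenes and held 20 and 32 cDNAs without LPS, 3 and 50 after 1 h, and 0 and 33 after 4 h, for TTP and TTP-AA. As a share of member cDNAs this was 26.3% and 43.2% without LPS, 2.70% and 14.8% after 1 h, and 0% and 75% after 4 h. The difference was 16.9 points (1.69 to 31.2) without LPS, 12.1 (6.10 to 16.6) after 1 h and 75 (46.8 to 85.4) after 4 h. Since 10 A had to lie wholly within the 40 nt after the site, sites farther from a run could not be counted. Within this range, the median cDNA lay 14 nt before the first A, with quartiles at 11 and 18.8 nt. None lay closer than 9 nt. The runs were 11 to 42 nt long. In 7 of the 12 pseudogenes the copied sequence ended within 10 nt of the annotated 3′ end of the source gene, and a polyadenylation signal (AATAAA or ATTAAA, sense strand, from 30 nt before to 40 nt after the site) stood at 90.0% of A-tract positions, 60.7% of annotated-end positions and 4.10% of all positions of the same pseudogenes.

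**Figure D4:**
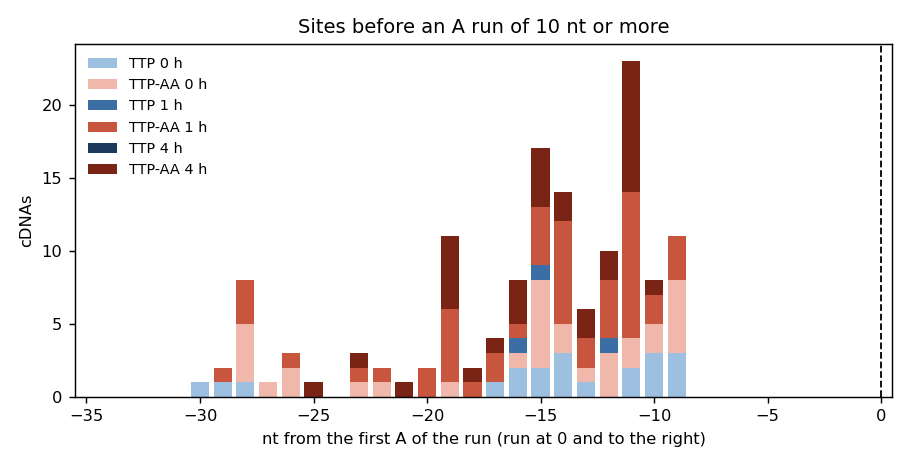
cDNAs (y axis) at sites with a run of at least 10 A in the next 40 nt, by distance in nt from the first A (x axis; the dashed line is the run), stacked by list. The highest bar is 11 nt before the run, no site is nearer than 9 nt, and the TTP list after 4 h has none.

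Mrpl23-ps1, a copy of a mitochondrial ribosomal protein gene, held 5 and 8 cDNAs without LPS, 0 and 4 after 1 h, and 0 and 3 after 4 h. Its most used position, chr2:74591380 and base 12 of the stretch printed above, had 3 and 5 cDNAs without LPS and 0 and 3 after 1 h. Gm1821, a copy of the polyubiquitin gene Ubb, held 3 and 3, 0 and 5, and 0 and 2. Rpl37rt, a copy of Rpl37, held 0 and 5, 3 and 0, and 0 and 5, and supplied every A-tract cDNA of the TTP list after 1 h. For Rpl37rt, the end of the copied sequence lay 467 nt from the annotated end of the source gene.

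Gm15500 (ENSMUSG00000086583.3, chr7:114705217-114706235, minus strand) shared 99.9% of its words with Rpl5, a gene of the large ribosomal subunit. It held 8 and 16 cDNAs without LPS, 0 and 13 after 1 h, and 0 and 7 after 4 h. Its sequence past the annotated end was not used here, so whether a run of A follows is not known. Rps12-ps9, a copy of the small-subunit gene Rps12, had its 6 positions at the annotated end as well and held 12 cDNAs in the TTP-AA list after 1 h and none elsewhere. Rpl5 itself had 4 cDNAs in the TTP list without LPS and 8 in the TTP-AA list after 1 h, and Rps12 had none in any list.

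The 2 remaining leading pseudogenes with A tracts are Rps2-ps10 (ENSMUSG00000091957.3), a copy of the small-subunit gene Rps2, and Cd63-ps (ENSMUSG00000085939.3), a copy of the tetraspanin gene Cd63. Rps2-ps10 held 0 cDNAs in both lists without LPS, 0 and 30 after 1 h, and 0 and 14 after 4 h, all before a run of 29 A. Rps2 itself had 5 CDS cDNAs for TTP and 18 for TTP-AA after 1 h, and 4 and 0 after 4 h. Cd63-ps held 6 and 13 without LPS, 0 and 9 after 1 h, and 0 and 5 after 4 h, whereas Cd63 had exonic cDNAs only in the TTP-AA list after 1 h, namely 7 3′UTR and 3 CDS cDNAs. Rps2-ps10, Cd63-ps, Mrpl23-ps1 and Gm1821 together supplied 109 of the 138 A-tract cDNAs.

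A-tract and annotated-end positions, 78 in 21 pseudogenes, were also taken as 1 group. This grouping was made after the data were seen, so its differences describe these lists and are not a test. They held 0.103% for TTP and 0.164% for TTP-AA without LPS, 0.0130% and 0.0497% after 1 h, and 0% and 0.253% after 4 h. The differences were 0.0613 points (0.000851 to 0.124), 0.0368 (0.0214 to 0.0506) and 0.253 (0.185 to 0.342). The 315 other positions gave -0.0723 points (-0.135 to -0.0128) without LPS, 0.0215 (-0.0154 to 0.0553) after 1 h and -0.0493 (-0.0960 to -0.00801) after 4 h. After 4 h of LPS, 42 of the 44 TTP-AA cDNAs were in the first group and all 12 TTP cDNAs were in the other. In 3′UTRs, A runs also followed more TTP-AA cDNAs after 4 h, 8.17% (6.57 to 10.1) against 2.08% (1.32 to 3.26) for TTP, but not after 1 h, when the shares were 1.5% and 2.06%. In CDS, at most 3 cDNAs of a list preceded such a run.

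Single pseudogenes were compared after 1 h by the ratio of their shares, with 0.5 added to each count, among those with at least 10 cDNAs over both lists. Only 10 pseudogenes reached this minimum and 105 did not, of which 27 had no cDNA after 1 h. Of the 10, 4 were past 4-fold higher for TTP-AA (40%) and 0 for TTP. Among all 2461 genes with exon sites and as many cDNAs, 59.5% were past 4-fold higher for TTP-AA and 3.33% for TTP. The 4 pseudogenes had 0 cDNAs in the TTP list and reached the minimum through the TTP-AA list alone, which was also the deeper list (154809 against 69339 cDNAs), so the minimum itself set their direction.

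**Figure D5:**
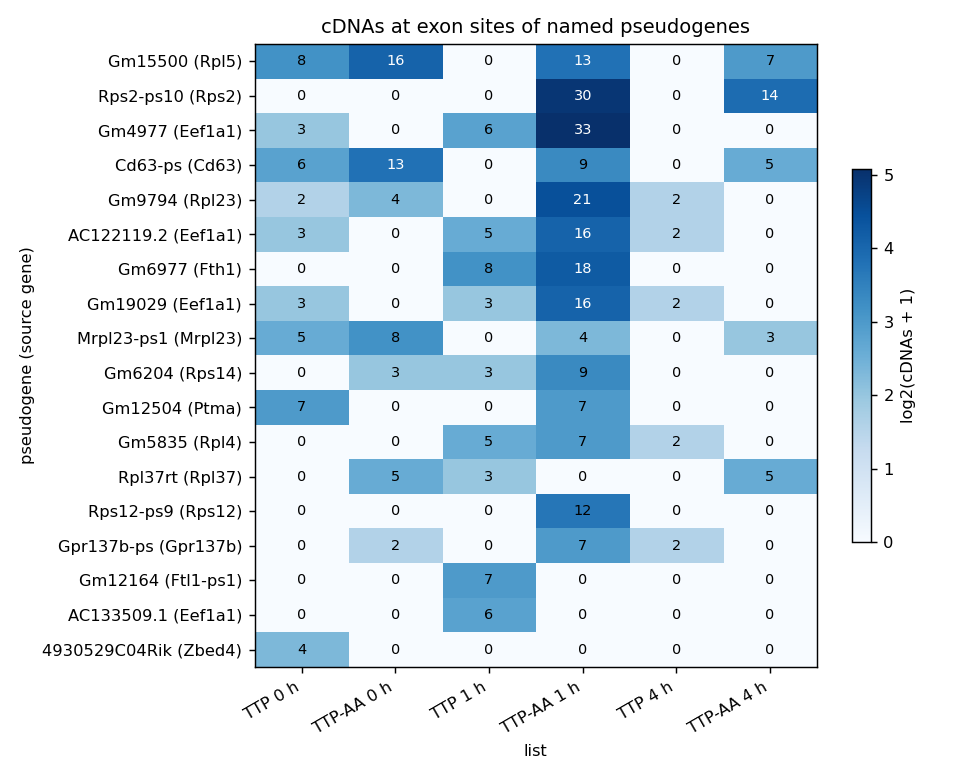
cDNAs of the 18 pseudogenes named by the rule, in each list (columns), with the source gene in brackets; shading is log2(cDNAs + 1). Gm15500, Cd63-ps and Mrpl23-ps1 have cDNAs in all lists but those of TTP after 1 h and 4 h, whereas Eef1a1 copies have most after 1 h.

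For these 4, the ratio has no upper limit. The exact intervals began at 3.42 for Rps2-ps10, 2.33 for Gm9794, 1.37 for Gm15500 and 1.24 for Rps12-ps9. With 3 cDNAs, the limit that a count of 0 allows, in place of the TTP count, the ratios were 4.48, 3.14, 1.94 and 1.79 in the same order. The latter leave out the counting error of the TTP-AA list and are not lower bounds. As the minimum set the direction of these 4, the values describe them and do not test a difference. At the other end, Gm5835 had a ratio of 0.627 (exact interval 0.171 to 2.51) and Gm6977 a ratio of 1.01 (0.417 to 2.68), so neither list was distinguishably higher. Gm4977 had the only interval above 1 among pseudogenes with cDNAs in both lists, with a ratio of 2.46 (1.02 to 7.19). Gm12164, a copy of a ferritin light chain gene, held 7 cDNAs in the TTP list after 1 h and none in any other list, which is under the minimum.

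Grouped by source gene, ribosomal protein copies were the largest family, with 28 pseudogenes, 24 source genes and 222 cDNAs. They held 25% and 37.8% of the member cDNAs without LPS, 27.0% and 33.4% after 1 h, and 33.3% and 63.6% after 4 h, for TTP and TTP-AA. Copies of translation factors, 10 pseudogenes of Eef1a1 and Eef1g, held 30.6% of cDNAs for TTP and 20.4% for TTP-AA after 1 h. Copies with Fth1 or Ftl1 as source gene held 11 and 24 cDNAs after 1 h, a ratio of shares, TTP-AA over TTP, of 0.977 (exact interval 0.461 to 2.21). This count leaves out Gm12164 and Gm5213, whose source gene was Ftl1-ps1 and whose windows matched Ftl1. Those copies held 7 and 2 cDNAs in the TTP list after 1 h and 0 in the TTP-AA list. Chaperone copies held 2 and 14 cDNAs after 1 h, a ratio of 3.14 with an interval that included 1 (0.720 to 28.4). Copies of actins and tubulins held 6 and 2, a ratio of 0.149 (0.0147 to 0.835). No member was a copy of a gene in the lists used for histones and for splicing factors and hnRNPs. The latter list did not hold Lsm5, Pcbp2 or Ppig. Their copies Gm10074, Gm6140 and Gm20768 were members with 3 cDNAs each. Among actin-binding genes, AC124336.1, a copy of the profilin gene Pfn1, held 3 cDNAs in the TTP-AA list after 1 h and none elsewhere, whereas the 3′UTR of Pfn1 held 70 cDNAs for TTP and 413 for TTP-AA at that time.

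The source genes were often crosslinked themselves. After 1 h of LPS, 31 of 93 had an exonic site of their own for TTP and 55 for TTP-AA (33.3% and 59.1%), against 7.80% and 22% of all protein-coding genes. After 4 h of LPS the shares were 9.68% and 5.38%, against 1.04% and 1.21%. The source genes were selected because a copy held cDNAs in these same lists, and mRNA abundance was not matched. The comparison with all protein-coding genes therefore describes the selected genes and is not a test. In the TTP-AA list after 1 h, the source genes held 1567 3′UTR cDNAs and 479 CDS cDNAs, with 336 at their pseudogenes. Examples of strong 3′UTR crosslinking beside weak copies were Cfl1, the gene of the actin-severing protein cofilin, with 134 3′UTR cDNAs and 4 at its copy, and Npm1, with 51 and 3.

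The binding motif of TTP was scarce. AUUUA lay wholly within 20 nt of 0 of 97 TTP sites (Wilson interval 0% to 3.81%) and of 16 of 221 TTP-AA sites (7.24%, 4.51 to 11.4) after 1 h, a difference of 7.24 points (2.55 to 11.4). All positions of the same pseudogenes gave 2.12%. Without LPS, 0 of 60 TTP and 1 of 50 TTP-AA sites had the motif, and after 4 h 0 of 12 and 1 of 27. By the same measure, 3′UTR sites after 1 h had 37.8% and 34.2%, and CDS sites 5.49% and 22.9%. The 16 TTP-AA sites lay in 7 pseudogenes with at most 3 each, among them Gpr137b-ps, an unprocessed copy of the gene of a lysosomal membrane protein, so sites of 1 gene share sequence.

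Positions were partly shared between the proteins. After 1 h of LPS, 30 of 97 TTP sites (30.9%, 22.6 to 40.7) had a TTP-AA member site within 15 nt, and 42 of 221 TTP-AA sites (19.0%, 14.4 to 24.7) had a TTP site. The TTP share was close to that of CDS sites (35.1%, 32.2 to 38.2) and below that of 3′UTR sites (76.6%, 75.6 to 77.6). Without LPS, the shares were 31.7% and 38.0%. After 4 h of LPS, 0 of 12 TTP sites and 0 of 27 TTP-AA sites lay near one of the other protein, with upper Wilson limits of 24.2% and 12.5%. The 1 h TTP share was 15.5% for the same nucleotide and 18.3% without the 5 pseudogenes with most sites.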

How the data were processed

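The 6 lists hold 1 score per site, which per the file headers is the authors' count of unique cDNAs, with the strand as its sign. According to the study's methods, the authors removed duplicates by random barcode bases, mapped reads to mm10 with Bowtie, an aligner that does not split reads across junctions, recorded the base upstream of each read as the site, pooled the group's libraries and retained sites at a false-discovery rate of 0.05 in iCount. How reads with several equal places were handled decides which copy holds a site and was not tested. Regions came from GENCODE M21 on GRCm38, later than the authors' annotation; windows were compared with its transcripts only, since no genome sequence was used, and pseudogene sequences are those of GENCODE M21 transcripts. Matching allowed 2 mismatches and no gaps in 40 nt, or down to 24 nt near an annotated end. Shares have Wilson 95% intervals, differences Newcombe intervals and ratios exact Clopper-Pearson intervals, computed with scipy 1.17.1, numpy 2.4.6, pandas 2.3.3 and numba; all cover counting error only. The limit for a count of 0 was 3 counts. The lists held 16588 to 154809 cDNAs outside the excluded loci, which took 11.2% to 32.7% of a list. Methods were tested on simulated data. The named pseudogenes were the 5 with most cDNAs in each list and the 5 with the largest and smallest ratios at 1 h; Gm1821, Gpx4-ps2, Cfl1, Npm1, AC124336.1 and AC110913.1 were chosen after their values were seen. The members, families and tests were chosen with earlier results of these data known.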

Additional observations from a re-analysis of the deposited data

Results flagged for a closer look

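The difference between the proteins was not the same at all times. The share difference, TTP-AA minus TTP, was 0.215 percentage points larger at 4 h than at 0 h (interval 0.0968 to 0.342, from the Newcombe intervals of both times), and exceeded that of 1 h by 0.146 points (0.0561 to 0.248). Between 1 h and 0 h it differed by 0.0692 points (-0.0247 to 0.162). The 12 TTP cDNAs at 4 h lay at 12 sites in 6 pseudogenes, and the 44 TTP-AA cDNAs at 27 sites in 10. At 4 h, 33 of the 44 preceded an A tract. The part of A tracts and of the marking of the 1 h lists in these differences was not tested.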

How the results depend on the processing

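No paired analysis was possible because each list is the sum of its group's libraries and holds no replicate values, and for the same reason no replicate could be left out. Of 61 alternatives, 38 kept direction and call. At 0 h, where no difference was called, the share difference was 0.0343 points with sites of at least 2 cDNAs, 0.000598 with whole lists as denominator, and -0.0723, its interval then below 0, without A-tract and annotated-end positions. At 1 h it was -0.156 with each site counted once, -0.300 with exonic denominators, 0.00943 without the 5 leading pseudogenes, 0.0303 without A tracts and 0.0215 without A tracts and annotated ends. At 4 h these were 0.126 with each site counted once, -0.00110, 0.00493 and -0.0493 for the last 3. Leaving out A tracts or ends was chosen after the data were seen, and makes the numerator smaller by construction; the cause of the other changes was not tested. The number of pseudogenes past 4-fold higher for TTP-AA was 11 with at least 5 cDNAs and 2 with at least 20, and for TTP 3 with at least 5. The match share at 1 h was 22.5% for TTP and 18.9% for TTP-AA without mismatches, 74.8% for TTP with up to 1, and for TTP-AA 80.2% with a 25-nt window and 72.4% by site. With UAUUUAU, the motif difference was 3.62 points and its interval included 0. The shared-position share was 15.5% for the same nucleotide and 18.3% without the 5 pseudogenes with most sites. With 12 to 338 member cDNAs per list, single pseudogenes could seldom be compared.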

Other observations

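Pseudogenes outside the leading families were seen at few cDNAs. Gm12504, a copy of the prothymosin gene Ptma, held 7 cDNAs in the TTP list without LPS and 7 in the TTP-AA list after 1 h, and none in the other lists. Gm8276, a copy of the poly(A)-binding protein gene Pabpc1, held 2 and 2 cDNAs without LPS and 0 and 8 after 1 h; it was chosen after its values were seen. Pabpc1 itself had 5′UTR cDNAs in both lists without LPS, 26 for TTP and 79 for TTP-AA, and 28 and 148 after 1 h. Gpr137b-ps, the unprocessed copy, held 2 cDNAs for TTP-AA without LPS, 7 for TTP-AA after 1 h and 2 for TTP after 4 h. 4930529C04Rik, a copy of part of Zbed4, held 4 cDNAs in the TTP list without LPS before a run of 34 A, and none in any other list.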
